A study of Mus musculus with 74 samples.

Results

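The data described here are 6 microarrays of gonads from C57BL/6J (B6) mouse embryos at stage E11.8 (E for embryonic day), 3 from XY and 3 from XX embryos, out of 74 arrays in the series. They were chosen by their labelled strain, stage and sex. The series covers gonads of both sexes and of the inbred strains B6 and 129S1/SvImJ (129S1) from E11.0 to E12.0, on MouseRef-8 v2.0 BeadChips. Its question was when the testis and ovary programs begin and how the strains differ. Each array held RNA of 1 pair of gonads from 1 wild-type embryo, dissected away from the mesonephros, and stage was set by counting tail somites. The paper drew the replicates of a group from more than a single litter, so some may share one, but the labels give no litter. The p values and standard errors use the spread between embryos within groups, pooled for each probe over all 74 arrays. Levels are on the log2 scale of the deposited, quantile-normalized values, on which the median of an array is 7.402. A difference is XY minus XX on this log2 scale, given with its standard error, and a difference of 1.00 is a doubling. A gene was called when its p value from limma, adjusted by the Benjamini-Hochberg method over all 12848 kept probes, was below 0.05. A whole gonad holds supporting, interstitial, germ and endothelial cells, so fewer cells of a type and less RNA per cell cannot be told apart.

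The early mouse gonad is bipotential. In XY gonads the Y-linked gene Sry acts briefly in supporting cell precursors and switches on Sox9, and Sox9 and Fgf9 then drive these cells to become Sertoli cells, which secrete Amh and Dhh and enclose the germ cells in testis cords. In XX gonads the same precursors become pregranulosa cells under Wnt4, Rspo1 and β-catenin, with Fst among the targets of this pathway. The programs antagonize each other, so genes of one are normally low in the gonads of the other sex.

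All 6 arrays lay on the side of the sex-linked transcripts that their labels predict. Xist, the RNA that silences an X chromosome, was between 10.43 and 10.98 in XX gonads and between 7.21 and 7.56 in XY gonads, and the Y-linked Eif2s3y was between 6.83 and 7.14 against 8.75 and 9.53. Wt1, a transcription factor of gonadal somatic cells, was at 13.04 to 13.35 in all 6 arrays. Markers of mesonephric tubules were near the array median, with Pax8 at 7.24 to 7.70, Cdh16 at 7.16 to 7.37 and Lhx1 at 7.21 to 7.85. The embryonic globin Hbb-y was at 14.5 to 15.1, so red blood cell RNA was present in every sample. The arrays of the series also share an axis along which they deviate from their group means, which holds 36.1% of the variance within groups. On this axis, with loadings computed from the other arrays, the 3 XX gonads scored 14.1, 12.9 and 11 and the 3 XY gonads 2.63, -13.9 and 1.43. E11.8 was the 1 stage of 6 in B6 at which XX and XY arrays did not overlap on it, and across probes the loading correlated with the sex difference at r = -0.518. Counts over all genes are therefore also given from a fit with this score as a covariate, which was added after seeing the data. So are genes of the lists or named by rule whose call it changed. The scores came from deviations from each probe's mean over all arrays, so they include differences between groups. The score gap and the correlation thus reflect the same differences, and the covariate may take out part of the sex difference itself.

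Promoter sequences are shown for 4 genes that carry the contrast: Mmd2, the gene with the largest difference; Cbln4, a secreted cerebellin of Sertoli precursors; Fgf9, a growth factor of the testis pathway; and Wnt4, the signal of the ovary pathway. Each run is the 250 bases before the start of the gene, 5′ to 3′ on the strand of the gene, from RefSeq on GRCm38.p6. They lie at chr5:142608753-142609002 on the minus strand (Mmd2), chr2:172043467-172043716 on the minus strand (Cbln4), chr14:58072436-58072685 on the plus strand (Fgf9) and chr4:137277385-137277634 on the plus strand (Wnt4). Capitals mark a match to 1 of the 4 motifs searched on both strands.
Mmd2: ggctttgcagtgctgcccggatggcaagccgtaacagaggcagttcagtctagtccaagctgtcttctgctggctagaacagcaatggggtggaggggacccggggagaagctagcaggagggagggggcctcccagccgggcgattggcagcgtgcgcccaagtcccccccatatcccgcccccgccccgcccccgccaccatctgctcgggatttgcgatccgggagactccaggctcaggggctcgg
Cbln4: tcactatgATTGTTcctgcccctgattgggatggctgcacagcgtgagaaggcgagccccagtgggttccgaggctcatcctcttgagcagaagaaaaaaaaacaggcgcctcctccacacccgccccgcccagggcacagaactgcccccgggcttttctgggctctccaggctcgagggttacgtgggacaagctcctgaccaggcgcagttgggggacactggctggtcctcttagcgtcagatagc
Fgf9: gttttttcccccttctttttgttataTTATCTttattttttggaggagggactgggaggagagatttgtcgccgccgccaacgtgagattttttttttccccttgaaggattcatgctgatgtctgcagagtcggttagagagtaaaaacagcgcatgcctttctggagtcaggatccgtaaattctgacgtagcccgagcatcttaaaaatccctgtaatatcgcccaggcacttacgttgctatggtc
Wnt4: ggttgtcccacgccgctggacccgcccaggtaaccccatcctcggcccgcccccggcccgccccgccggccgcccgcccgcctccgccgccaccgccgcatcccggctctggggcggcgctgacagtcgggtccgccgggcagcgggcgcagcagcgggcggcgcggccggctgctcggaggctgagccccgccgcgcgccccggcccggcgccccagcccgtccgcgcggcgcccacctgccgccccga
The motifs were AACAAT for SOX factors, AAGGTCA for NR5A1, CTTTGAT for TCF/LEF and AGATAA for GATA factors. Cbln4 held the SOX motif and Fgf9 the GATA motif, each on the opposite strand, and the windows of Mmd2 and Wnt4 held none of the 4. Such a window was found for 208 of the 277 genes called higher in XY gonads, 94 of the 111 called lower and 7055 of all genes tested. The SOX motif was in 3.37% of the first, 4.26% of the second and 4.83% of all, and the GATA motif in 8.65%, 3.19% and 5.7%. NR5A1 matches were in 2.4%, 2.13% and 2.88%, and TCF/LEF matches in 2.88%, 0% and 2.21%. A match describes the letters and is not a binding site, and these shares were not tested.

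At E11.8, XY gonads of B6 had higher levels of 277 autosomal genes and lower levels of 111, of 8698 tested (3.18% and 1.28%). In total 388 genes (4.46%) passed the test, where 1690 had an unadjusted p under 0.05, and the median difference over all genes was 0.01. Genes higher in XY gonads were led by Sertoli cell genes, with Mmd2 at 3.15, Aard at 3.12, Cst9 at 3.03, Dhh at 2.82 and Sox9 at 2.46. Genes lower in XY gonads were led by Fst at -2.81 and Wnt4 at -1.99. Of the genes called higher, 46 differed by 2-fold or more, 106 by 1.5-fold to 2-fold and 125 by less, with a median of 0.63. Of those called lower, 12, 52 and 47 fell in these ranges, with a median size of 0.60. The 3 XY and 3 XX values did not overlap for 273 of the 277 and for all 111, against 2375 of all genes tested (27.3%).

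The calls depended more on one XY gonad than on the others. Without XY replicate 3, the highest of the XY gonads for Mmd2, Dhh, Cbln4 and Amh, 165 probes were called higher and 58 lower, against 319 and 143 with all 6 arrays (2.72% and 1.22% of 11723 autosomal probes, or 3.94% in all). The number called lower was also 84 without XX replicate 2, 77 without XX replicate 3 and 77 without XY replicate 2. With the shared axis as a covariate, 264 genes were called higher and 126 lower, and 234 and 77 of these were the same genes. Of the 77 genes named by rule that were called, 57 kept the call whichever of the 6 arrays was left out, and the sign never turned. These 77 include the sex-linked Xist, Eif2s3y, Kdm5d and Kdm6a. Many were named for their difference in these same arrays, so these counts do not describe called genes in general. Of the 462 autosomal probes called, 218 kept their call without XY replicate 3.

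**Figure D1:**
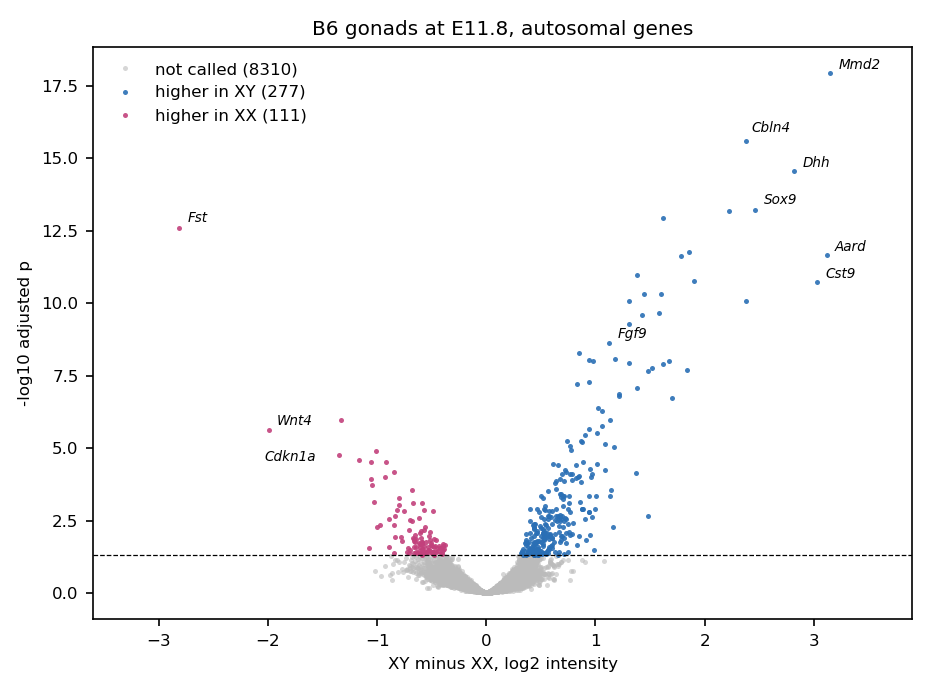
Difference between XY and XX gonads of B6 at E11.8 (x axis, log2, XY minus XX) against −log10 of the adjusted p from limma (y axis) for each autosomal gene tested, with genes called higher and lower in colour. The 277 genes to the right reach 3.15 (Mmd2) and the 111 to the left reach -2.81 (Fst).

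Sox9, the transcription factor that commits supporting cells to the Sertoli fate, was at 7.21, 7.18 and 7.22 in the 3 XX gonads and at 9.70, 9.63 and 9.67 in the 3 XY gonads. The XX values were below the array median, the XY values were nearly equal, and the difference was 2.46 ± 0.20 (limma, adjusted p = 5.94e-14). Sox13, a related SOX gene, differed by 0.46 ± 0.13 (adjusted p = 0.0341; 0.05 and not called with the axis as a covariate). Sox8, which acts alongside Sox9 in the testis, was at 7.72 to 8.16 in XX gonads and 7.69 to 8.09 in XY gonads, so the groups overlapped (difference -0.06 ± 0.18, adjusted p = 0.876). Nr5a1, a nuclear receptor that both gonads need and that cooperates with Sry on Sox9, also overlapped, at 8.05 to 8.71 against 8.24 to 8.31 (-0.12 ± 0.20, adjusted p = 0.779).

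Among the secreted signals of the testis pathway, Fgf9 was at 7.75, 7.72 and 7.68 in XX gonads and 8.89, 8.84 and 8.81 in XY gonads. It was higher in every XY gonad, by 1.13 ± 0.13 (adjusted p = 2.26e-09). Dhh, the hedgehog ligand of Sertoli cells that acts on Leydig and peritubular precursors, was at 7.15, 7.29 and 7.18 in XX gonads and 10.02, 9.73 and 10.32 in XY gonads, a difference of 2.82 ± 0.22 (adjusted p = 2.74e-15). Of 10 hedgehog response genes on the array 2 were kept, and neither was called at the probe read. Ptch1, the hedgehog receptor and a standard target, was at 7.39, 7.39 and 7.58 against 7.42, 7.31 and 7.51 (-0.04 ± 0.10, adjusted p = 0.853), and Smo, the signal transducer, differed by -0.32 ± 0.12 (adjusted p = 0.135). The other kept probes of Smo gave -0.43 and -0.26, and 1 of them was called lower. Amh, the hormone that makes the Müllerian duct regress, was at 7.07, 7.13 and 7.34 in XX gonads and 8.08, 7.81 and 8.67 in XY gonads. Its difference of 1.01 ± 0.20 (adjusted p = 0.00043) was smaller than that of Dhh, and XY replicate 3 was well above the other XY gonads. Among the Nodal antagonist genes, Lefty2 was at 8.68, 7.92 and 8.76 against 7.63, 7.39 and 7.36 in XX gonads (1.00 ± 0.21, adjusted p = 0.00124). Lefty1 differed by 0.80 ± 0.18 (adjusted p = 0.00394) and was not called without XY replicate 3 (0.62, adjusted p = 0.105).

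The cerebellin genes Cbln4 and Cbln1, which encode secreted proteins best known at synapses, differed by the same amount after different changes from E11.0. Cbln4 was at 7.93, 8.02 and 7.35 in XX gonads and 9.91, 10.03 and 10.49 in XY gonads (2.38 ± 0.17, adjusted p = 2.45e-16). Cbln1 was at 9.11, 8.55 and 8.93 in XX gonads and 11.19, 10.89 and 11.64 in XY gonads (2.38 ± 0.25, adjusted p = 8.01e-11). From E11.0, Cbln1 fell by 2.18 in XX gonads (adjusted p = 5.5e-09) while its change in XY gonads was -0.30 (adjusted p = 0.75), and Cbln4 rose by 1.29 in XY gonads (adjusted p = 1.1e-07) and fell by 1.05 in XX gonads (adjusted p = 4e-05). Lmo4, a LIM-domain cofactor, also had a high level in both sexes, at 10.66, 10.71 and 11.11 in XX gonads against 12.36, 12.33 and 12.25 in XY gonads (1.49 ± 0.18, adjusted p = 2.22e-08).

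The largest difference was that of Mmd2, a gene of the progestin and adipoQ receptor family, at 7.34, 7.41 and 7.40 in XX gonads and 10.54, 10.19 and 10.86 in XY gonads (3.15 ± 0.20, adjusted p = 1.13e-18). Its XX level was at the array median, and that of Aard, an alanine- and arginine-rich domain gene, was not: Aard was at 9.45, 9.43 and 9.79 against 12.83, 12.27 and 12.93 (3.12 ± 0.29, adjusted p = 2.19e-12). Cst9, a cystatin gene and early marker of Sertoli cells, was at 8.11, 8.95 and 8.63 against 11.50 and 11.49 in XY replicates 1 and 2, with XY replicate 3 higher still (3.03 ± 0.30, adjusted p = 1.84e-11). In all of these the XX and XY values lay more than 2 log2 units apart. Rnase1, a secreted ribonuclease, was at 7.23, 7.27 and 7.21 in XX gonads and 9.40, 9.55 and 9.44 in XY gonads (2.23 ± 0.19, adjusted p = 6.43e-14). Tesc, a calcium-binding protein gene, was at 7.33, 7.32 and 7.39 against 9.13, 8.63 and 9.13 (1.61 ± 0.14, adjusted p = 1.15e-13). XY replicate 2 was the lowest XY gonad for Mmd2, Aard, Dhh and Tesc, though still above every XX gonad.

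Of the enzymes and structural genes higher in XY gonads, 3 encode mu-class glutathione S-transferases. Gstm2 was at 12.77, 12.67 and 12.94 in XX gonads and 14.14, 13.89 and 14.26 in XY gonads, and the differences were 1.43 ± 0.15 for Gstm1, 1.30 ± 0.16 for Gstm2 and 1.78 ± 0.16 for Gstm6. These genes are close paralogs and their probes may cross-hybridize, and the other kept probe of Gstm1 gave -0.52 and was not called. Espn, which encodes an actin-bundling protein, was at 8.46, 8.49 and 8.41 against 10.41, 10.05 and 10.61 (1.90 ± 0.19, adjusted p = 1.76e-11), while its other probes gave -0.31 to 0.72. Fbln2, an extracellular matrix protein gene, was at 9.18, 9.35 and 9.30 against 10.84, 10.98 and 11.05 (1.67 ± 0.20, adjusted p = 9.85e-09). The other kept probe of Fbln2 gave 0.33 and was not called. The remaining genes among the 15 largest were Gldn, a gliomedin matrix protein gene, at 1.86, Cited4, a transcriptional coactivator gene, at 1.84, Tmem184a at 1.70 and Ppp1r3c, a glycogen-targeting phosphatase subunit gene, at 1.62.

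Further genes of the testis pathway were also called higher. Gas7, which encodes a cytoskeletal protein, differed by 1.09 ± 0.17, Mybphl by 1.06 ± 0.15, Schip1 by 1.16 ± 0.28 and Lpl, the lipoprotein lipase gene, by 0.66 ± 0.15. The other kept probe of Schip1 gave 0.24 and was not called. Gas7 also rose from E11.0 in XX gonads, by 0.73 (adjusted p = 0.006), as it rose by 1.88 in XY gonads (adjusted p = 1.2e-12). Socs2, a feedback inhibitor of cytokine signaling, was at 10.04, 10.18 and 9.96 against 11.08, 11.16 and 10.90 (0.98 ± 0.28, adjusted p = 0.0326). Its groups did not overlap, but the call was lost whichever array was left out (highest adjusted p = 0.121) and with the axis as a covariate (adjusted p = 0.0596).

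**Figure D2:**
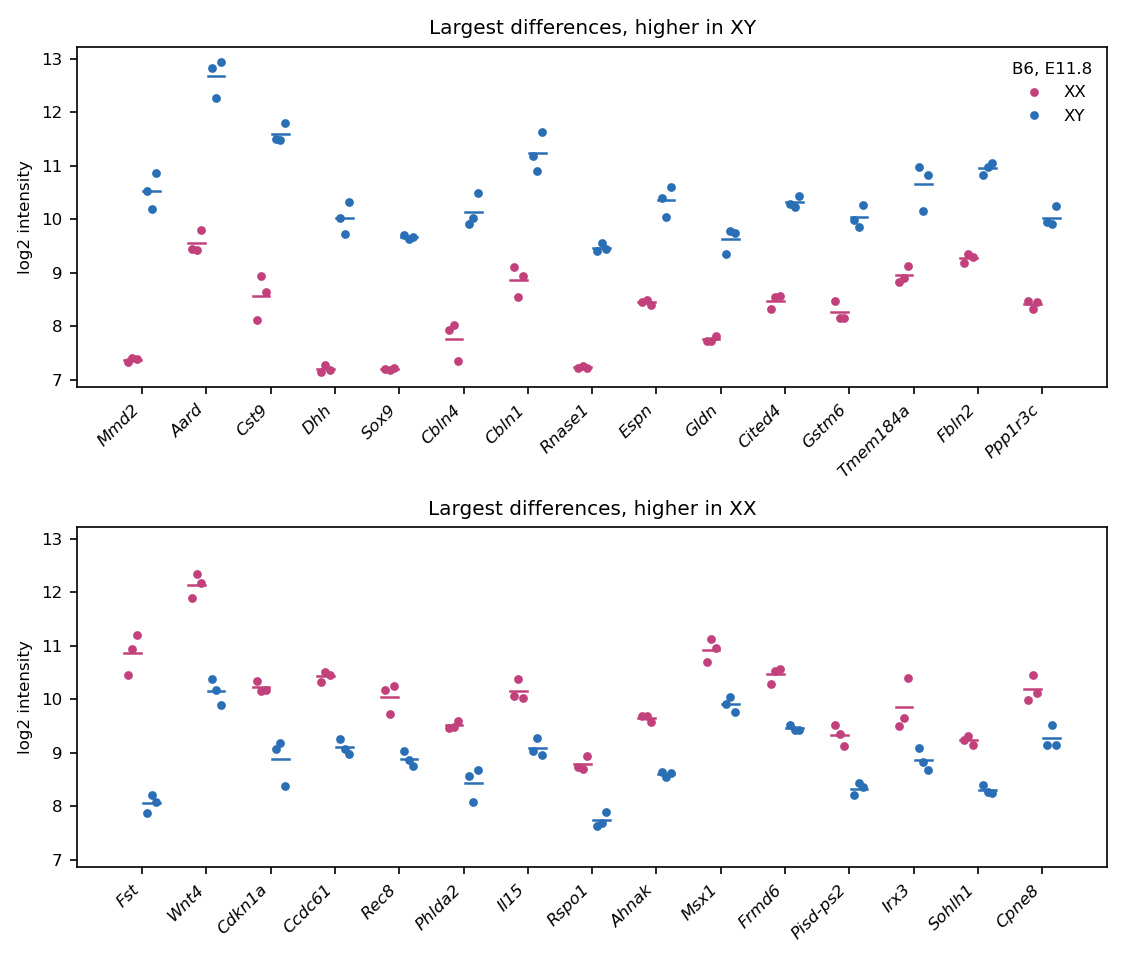
Level (y axis, log2) in each of the 3 XX and 3 XY gonads of B6 at E11.8 for the 15 autosomal genes (x axis) with the largest differences in each direction, with short lines at the group means. XX and XY points do not overlap for any gene, which was part of the rule that chose these genes, and XX values of Mmd2, Dhh and Sox9 lie near the array median of 7.402.

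Fst, which encodes the activin-binding protein follistatin, had the largest difference in the other direction. It was at 10.46, 10.94 and 11.19 in XX gonads and 7.88, 8.20 and 8.08 in XY gonads, a difference of -2.81 ± 0.24 (adjusted p = 2.47e-13). Fst rose by 2.72 in XX gonads from E11.0 (adjusted p = 4.1e-12), and in XY gonads its change was 0.27 (adjusted p = 0.8). Wnt4, the ligand that holds the testis pathway down in XX gonads, was at 11.90, 12.35 and 12.17 against 10.38, 10.17 and 9.89 (-1.99 ± 0.30, adjusted p = 2.27e-06), and its other probe differed by -1.65. Its XY values lay more than 2 log2 units above the array median, and those of Fst less than 1.

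Rspo1, the secreted activator of Wnt signaling, was at 8.74, 8.70 and 8.95 in XX gonads and 7.63, 7.70 and 7.90 in XY gonads (-1.05 ± 0.19, adjusted p = 0.000118). Axin2, a feedback target of β-catenin, was at 9.87, 10.15 and 10.26 against 9.18, 9.67 and 9.43 (-0.66 ± 0.18, adjusted p = 0.016), without overlap. The Axin2 call was lost when any of 4 arrays was left out (highest adjusted p = 0.11, without XY replicate 1). Msx1, a homeobox gene of BMP response, was at 10.70, 11.12 and 10.96 against 9.91, 10.05 and 9.76 (-1.02 ± 0.21, adjusted p = 0.000695). The change behind this difference was in XY gonads, where Msx1 fell by 0.99 from E11.0 (adjusted p = 0.00086), while its change in XX gonads was -0.09 (adjusted p = 0.87). Irx3, an Iroquois homeobox gene of pregranulosa cells, was at 9.50, 9.65 and 10.39 against 9.09, 8.83 and 8.68 (-0.98 ± 0.23, adjusted p = 0.00463). XX replicate 3 was far above the other XX gonads, and without it Irx3 was not called (-0.71, adjusted p = 0.119).

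Cell cycle inhibitors were among the genes lower in XY gonads. Cdkn1a, which encodes p21, was at 10.34, 10.16 and 10.17 in XX gonads and 9.07, 9.19 and 8.37 in XY gonads (-1.35 ± 0.22, adjusted p = 1.71e-05), and all 3 of its kept probes were called, the others at -0.99 and -0.90. Cdkn1b, which encodes p27, differed by -0.70 ± 0.20 (adjusted p = 0.0327) and was not called with the axis as a covariate (-0.51, adjusted p = 0.0569). Both inhibitors are known as marks of pregranulosa cells that leave the cell cycle, which was not tested here. At E11.0 Cdkn1a was at 9.64 in XX and 9.43 in XY gonads. Its change from E11.0 was called by limma in neither sex (XX 0.58, adjusted p = 0.125, and XY -0.55, adjusted p = 0.191). Igf1, a growth factor gene, was at 9.05, 9.07 and 9.00 against 8.43, 8.12 and 8.18 (-0.80 ± 0.16, adjusted p = 0.000901). Lhx9, a LIM homeobox gene that the early gonad needs, was at 10.14, 10.10 and 9.96 against 8.95, 9.63 and 9.45 (-0.73 ± 0.22, adjusted p = 0.039). That call was lost when any of 5 arrays was left out (highest adjusted p = 0.202, without XY replicate 1) and with the axis as a covariate (-0.51, adjusted p = 0.0668), and the second Lhx9 probe, at -0.36, was not called.

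Of 23 germ cell genes, 2 were called, both lower in XY gonads, where 1.28% of all genes were called lower. Rec8, a cohesin subunit of meiosis, was at 10.18, 9.73 and 10.25 in XX gonads and 9.03, 8.87 and 8.75 in XY gonads (-1.17 ± 0.20, adjusted p = 2.61e-05). Sohlh1, a transcription factor of later germ cell differentiation, was at 9.24, 9.31 and 9.15 against 8.40, 8.27 and 8.25 (-0.93 ± 0.17, adjusted p = 0.000102). Sohlh1 rose by 1.44 in XX gonads from E11.0 (adjusted p = 1.3e-08). The pluripotency and germ line genes Pou5f1 (-0.45), Dppa3 (-0.09), Nanos3 (0.00) and Dazl (0.25) were not called. The mean level over the 23 genes was 8.94 to 9.42 in XX gonads and 8.57 to 9.20 in XY gonads, with a median difference of -0.08.

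Several genes lower in XY gonads have no settled role in the ovary. Ccdc61, a centriole-associated coiled-coil gene, was at 10.33, 10.51 and 10.45 in XX gonads and 9.26, 9.07 and 8.98 in XY gonads (-1.33 ± 0.19, adjusted p = 1.09e-06). Its other kept probe gave 0.04 and was not called. Il15, a cytokine gene, was at 10.06, 10.38 and 10.02 against 9.04, 9.27 and 8.97 (-1.06 ± 0.18, adjusted p = 2.88e-05). The other kept probes of Il15 gave -0.60 and -0.35, and 1 of them was not called. Phlda2, an imprinted growth regulator, differed by -1.08 ± 0.31 (adjusted p = 0.0288) but was called in only 1 of the 6 fits with an array left out, and was not called with the axis as a covariate (-0.93, adjusted p = 0.0521). The rest of the 15 largest were Ahnak, a large scaffold protein gene, at -1.05, Frmd6, a Hippo pathway gene, at -1.01, Pisd-ps2, a pseudogene whose probe may read its parent gene, at -1.0, and Cpne8, a copine gene, at -0.92. The other kept probe of Frmd6 gave -0.10 and was not called.

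Gene lists were then counted, each beside the 3.18% and 1.28% of all genes called higher and lower and the median of 0.01 over all genes. Of the 36 kept genes of the testis pathway, 26 were called higher and 0 lower, with a median of 1.11. Some members are on this list because the study named them from these arrays, so its direction is not independent evidence. The mean level over the list was 8.48 to 8.50 in the 3 XX gonads and 9.57 to 9.92 in the 3 XY gonads. Members that were not called included Etv5, an FGF target, at 0.45, the activin subunit gene Inhbb at 0.78, Cyp26b1, which degrades retinoic acid, at 0.10, and Hsd17b1 at 0.23.

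Of the 29 kept genes of the ovary pathway, 9 were called lower in XY gonads and 4 higher, with a median of -0.38. The mean level was 9.39 to 9.50 in XX gonads and 8.96 to 9.11 in XY gonads. The 4 that were higher in XY gonads were Lmo4 (1.49), Aldh1a1 (1.48), Rgcc, a cell cycle regulator gene, at 0.95 and Lgr5 (0.68). Lmo4 is counted here because the list holds it, whereas the paper describes it as male-enriched from as early as E11.6. Aldh1a1, a retinaldehyde dehydrogenase gene, was at 7.48, 7.59 and 7.89 in XX gonads and 8.98, 9.41 and 9.03 in XY gonads (1.48 ± 0.33, adjusted p = 0.00212). Kitl, the ligand for the germ cell receptor Kit, differed by -0.97 ± 0.47 and was not called (adjusted p = 0.258). Its XY gonads were at 9.50, 9.33 and 8.09. The list's counts with the axis as a covariate were 4 higher and 8 lower.

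Targets of Wnt signaling did not move as 1 group. Of 11 kept feedback targets, Axin2 was called lower in XY gonads, while 3 were called higher: Nkd2, an inhibitor of Dishevelled, Ccnd1, the cyclin D1 gene, and Lgr5, a receptor for R-spondins. Nkd2 was at 7.35, 7.41 and 7.32 in XX gonads and 8.32, 8.29 and 8.39 in XY gonads (0.98 ± 0.12, adjusted p = 1.02e-08). Its groups did not overlap and its replicates were close. Ccnd1 differed by 0.75 ± 0.22 (adjusted p = 0.0379) and lost its call whichever array was left out (highest adjusted p = 0.185), and Lgr5 differed by 0.68 ± 0.15 (adjusted p = 0.00272; 0.0544 without XY replicate 3). The other kept probes of Ccnd1 gave 0.47 and 0.80, and 1 of them was not called. Sp5, a direct β-catenin target, was at -0.85 ± 0.30 (adjusted p = 0.0994), and the median of the list was -0.14. With the axis as a covariate the list had 3 called higher and 3 lower, Axin2, Sp5 (-1.10, adjusted p = 0.003) and Tnfrsf19, a receptor gene of the TNF family (-0.77, adjusted p = 0.0067).

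FGF feedback genes, which read out signaling through the MAP kinase pathway, were called higher in 4 of 10 cases and lower in 0, with a median of 0.37. Etv4, an ETS transcription factor, was at 7.95, 7.73 and 7.46 in XX gonads and 8.81, 8.82 and 9.65 in XY gonads (1.38 ± 0.18, adjusted p = 8.31e-08). Dusp6, a MAP kinase phosphatase, was at 11.52, 11.27 and 11.03 against 12.04, 11.86 and 12.04 (0.70 ± 0.14, adjusted p = 0.00043). The other kept probes of Dusp6 gave 0.16 and 0.84, and neither was called. Spred1, a MAP kinase inhibitor, differed by 0.60 ± 0.13 (adjusted p = 0.00245), and Dusp4, another phosphatase, by 0.77 ± 0.19 (adjusted p = 0.01). The Dusp4 call was lost without XX replicate 3 or XY replicate 3 (highest adjusted p = 0.163), and its other kept probe, at 0.18, was not called. Etv5 was not called (0.45, adjusted p = 0.155), and passed with the axis as a covariate (0.58, adjusted p = 0.0188) and without XX replicate 3 (0.66, adjusted p = 0.0464).

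In the TGF-beta superfamily, 3 of 21 genes were called higher and 3 lower, with a median of 0.04. The 3 higher were the Nodal antagonists Lefty1 and Lefty2 and the ligand gene Gdf10 (0.66 ± 0.20, adjusted p = 0.0485), whose call was lost with the axis as a covariate (0.51, adjusted p = 0.0948). The 3 lower were Fst and 2 genes of BMP response, Id3 (-0.89 ± 0.25, adjusted p = 0.0249) and the inhibitory Smad gene Smad6 (-0.62 ± 0.17, adjusted p = 0.0183). Id3 was at 9.98, 10.09 and 9.83 in XX gonads and 9.24, 9.08 and 8.92 in XY gonads. The Smad6 call was lost when any of 4 arrays was left out (highest adjusted p = 0.104, without XX replicate 3). The other kept probe of Smad6, at -0.53, was not called. The receptor gene Amhr2, which binds the hormone Amh, was high in both sexes, at 12.58, 12.82 and 12.76 against 12.28, 12.53 and 12.47, and was not called at the probe read (-0.29, adjusted p = 0.263). Its other kept probes gave -0.82 and -0.47, and 1 of them was called lower.

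Of 18 matrix genes, 4 were called higher in XY gonads and 0 lower, with a median of -0.00. These were Fbln2, Col9a2, a collagen IX chain gene (1.06 ± 0.16), Col18a1, a basement membrane collagen gene (0.89 ± 0.15), and Sparc (0.58 ± 0.15). Col18a1 was at 12.19, 12.07 and 12.19 in XX gonads and 12.92, 12.81 and 13.39 in XY gonads, whereas the basement membrane genes Col4a1 (0.09) and Lamc1 (0.03) were not called. Sparc lost its call in 3 of the 6 fits with an array left out (highest adjusted p = 0.169, without XY replicate 3), and its other kept probe, at -0.11, was not called. Of 13 glutathione and prostaglandin genes, 3 were called higher, all mu-class, with a list median of 0.16, and with the axis as a covariate Ptgds, the prostaglandin D synthase gene, passed too (0.61, adjusted p = 0.0344).

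Among the smaller lists, 2 of 25 guidance genes were called, both higher: Sema5a (0.91 ± 0.20, adjusted p = 0.00283; 0.079 without XY replicate 3) and Sema3f (0.44 ± 0.12, adjusted p = 0.0198), whose call was lost in 4 of the 6 fits with an array left out (highest adjusted p = 0.16). With the axis as a covariate Sema4a was also called higher (0.57, adjusted p = 0.00631) and the ephrin receptor gene Epha7 lower (-0.75, adjusted p = 0.00496). Of 11 insulin and IGF genes, Irs2, an insulin receptor substrate gene, was higher (0.68 ± 0.17, adjusted p = 0.0109) and Igf1 lower, and Irs2 lost its call in 3 of these 6 fits (highest adjusted p = 0.0898). In steroidogenesis, 1 of 4 kept genes was called, the testosterone-forming enzyme Hsd17b3 (0.54 ± 0.11, adjusted p = 0.00131). Hsd17b3 lay at 7.07, 7.00 and 7.03 in XX gonads and 7.56, 7.25 and 7.92 in XY gonads, and was not called without XY replicate 3 (0.37, adjusted p = 0.0976). Cyp11a1, the first enzyme of steroid synthesis, was at -0.39 (adjusted p = 0.22). Of 11 retinoic acid genes Aldh1a1 alone was called, with a list median of 0.07. Of 11 immediate early and heat shock genes only Jun was called (0.57 ± 0.14), and of 13 cholesterol synthesis genes only Mvd, lower in XY gonads (-0.67 ± 0.17). Jun lost its call in 3 of the 6 fits (highest adjusted p = 0.119) and Mvd in 2 (highest adjusted p = 0.11), and with the axis as a covariate the cholesterol gene Idi1 was called lower too (-0.47, adjusted p = 0.00327). Of 14 genes of early gonadogenesis, Lhx9 alone was called, and Wt1 (-0.08), Gata4 (-0.14) and Cbx2 (-0.00) were among the others.

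Beside the germ cell list, those of other cell types had 0 calls by limma: endothelium (20 genes, median 0.01), red blood cells (10, 0.19), leukocytes including macrophages (16, -0.02), mesonephric tubules (10, -0.07) and interstitial mesenchyme (19, 0.03). The 9 lists in this paragraph together had 15 of 147 genes at an unadjusted p under 0.05, against 1690 of all 8698 genes. These lists were grouped because they had no call, which by itself lowers their share. The comparison therefore does not show equal levels in the sexes. The mean level of the endothelial list was 9.29 to 9.44 in XX gonads and 9.25 to 9.46 in XY gonads. That of the mesonephric list was 7.82 to 7.93 against 7.76 to 7.82, and that of the red blood cell list 10.4 to 10.6 against 10.5 to 11.1. Cell division genes (20, median 0.07), hypoxia and glycolysis genes (19, 0.20), Notch genes (11, 0.07) and Hox genes (22, -0.12) also had 0 calls. The smallest adjusted p in these 9 lists was 0.0779, for the keratin gene Krt18 of the mesonephric list, which was called with the axis as a covariate (-0.48, adjusted p = 0.035), as was 1 hypoxia gene in each direction.

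**Figure D3:**
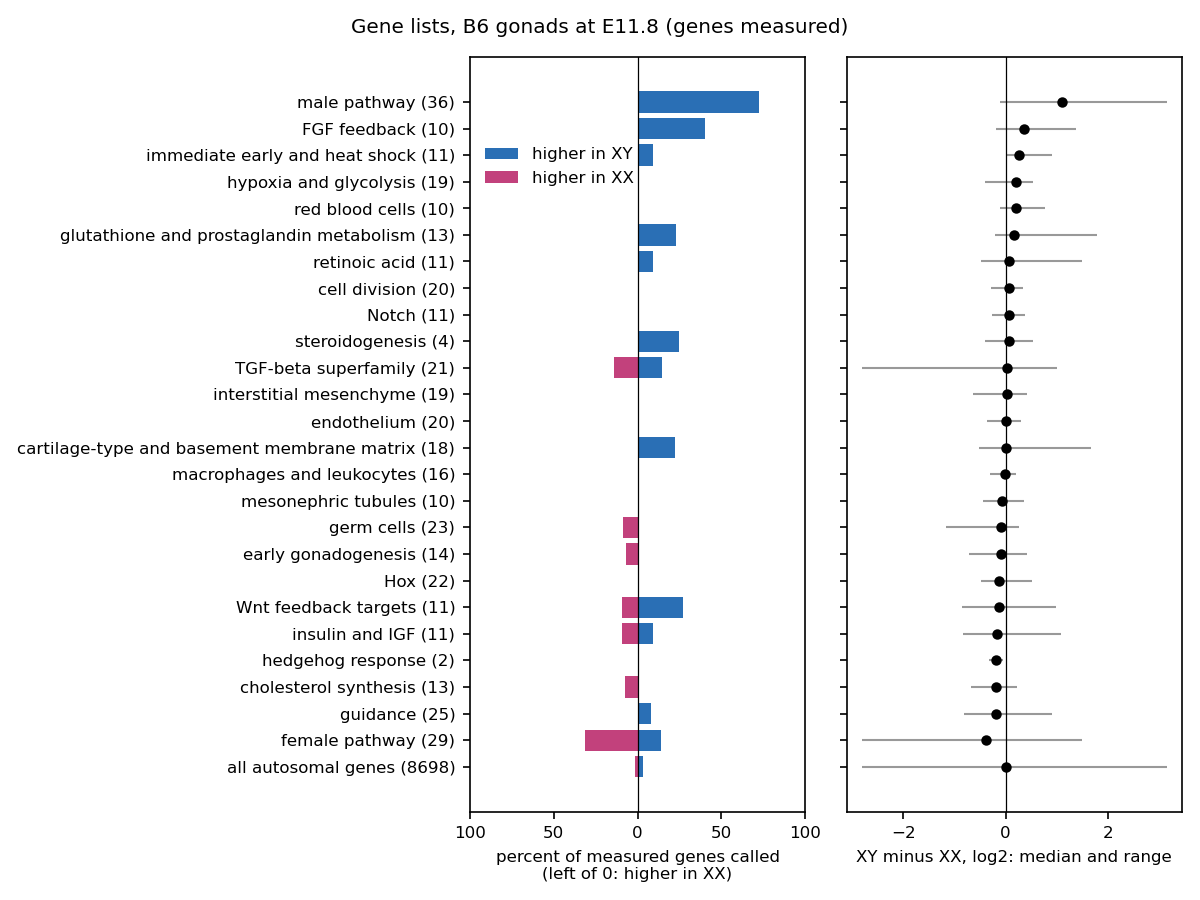
Percent of each gene list called higher or lower in XY gonads of B6 at E11.8 (left) and the median and range of the log2 differences in the list (right), with all autosomal genes for reference. The testis (male) pathway list has 26 of 36 genes called higher, the ovary (female) pathway list has calls in both directions, and the endothelial, red blood cell, leukocyte, mesonephric and interstitial lists have none.

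Before E11.8 few genes separated the sexes in B6. At E11.0, E11.2 and E11.4 the genes called numbered 1, 0 and 1 by limma (0.0115%, 0% and 0.0115%, with 427, 616 and 197 at an unadjusted p under 0.05), at E11.6 there were 15 higher and 1 lower (0.172% and 0.0115%), and at E12.0 there were 247 and 228 (2.84% and 2.62%, or 5.46% in all). All 16 genes called at E11.6 were called at E11.8 in the same direction. The increase in number between E11.6 and E11.8 does not by itself show that each gene changed, so the change of the sex difference was tested. Between these stages it was called for 19 genes, 17 upward (0.195%) and 2 downward (0.023%), with 859 at an unadjusted p under 0.05. These tests share the E11.8 arrays with the comparison above, and they moved with single arrays: against 20 probes called with all arrays, 7 were called without XY replicate 3 at E11.8 or XY replicate 1 at E11.6, 8 without XY replicate 2 at E11.6, and 10 to 12 without XX replicate 2 at E11.6 or XX replicate 2 or 3 at E11.8, whereas 35 were called without XY replicate 3 at E11.6.

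The strongest of them was Dhh, whose difference went from 0.65 to 2.82, a change of 2.17 ± 0.31 (adjusted p = 2.94e-05). Mmd2 went from 1.55 to 3.15 (change 1.60 ± 0.28, adjusted p = 0.00145), Cbln4 from 0.85 to 2.38 (1.52 ± 0.24, adjusted p = 0.000222), Cbln1 from 0.86 to 2.38 (1.52 ± 0.35, adjusted p = 0.035) and Chst1, a keratan sulfate sulfotransferase gene, from 0.06 to 1.52 (1.46 ± 0.26, adjusted p = 0.0023). Tesc, Diras2, a Ras-family GTPase gene, Adamts16, a metalloprotease gene, and Dusp15, a phosphatase gene, changed by 1.26, 1.01, 1.12 and 1.00. Sox9, by contrast, already differed by 1.74 at E11.6, and its change of 0.72 ± 0.29 was not called (adjusted p = 0.45). Amh differed by 0.13 at E11.6, and its change of 0.88 ± 0.28 did not pass either (adjusted p = 0.274). Of the ovary genes, Fst changed by -1.34 ± 0.34 (adjusted p = 0.0955), Rspo1 by -1.01 ± 0.27 (adjusted p = 0.127) and Wnt4 by -1.37 ± 0.42 (adjusted p = 0.243), and none of these passed the threshold.

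Within a sex, 49 genes rose and 4 fell in XY gonads between E11.6 and E11.8 (0.563% and 0.046%), and limma called 0 in XX gonads, where 920 had an unadjusted p under 0.05. In XY gonads Fgf9 rose by 0.71 (adjusted p = 0.000553), Amh by 0.96 (adjusted p = 0.00321) and Nkd2 by 0.77 (adjusted p = 3.01e-05). Over the longer interval from E11.0, 311 genes rose and 106 fell in XY gonads (3.58% and 1.22%, or 4.79% in all), and 186 rose and 180 fell in XX gonads (2.14% and 2.07%, or 4.21% in all). For the 277 genes higher in XY gonads at E11.8, the median change from E11.0 was 0.52 in XY gonads and -0.10 in XX gonads. For the 111 genes lower in XY gonads it was -0.22 in XY gonads and 0.42 in XX gonads. These medians use the E11.8 arrays that chose the genes and are given as description.

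**Figure D4:**
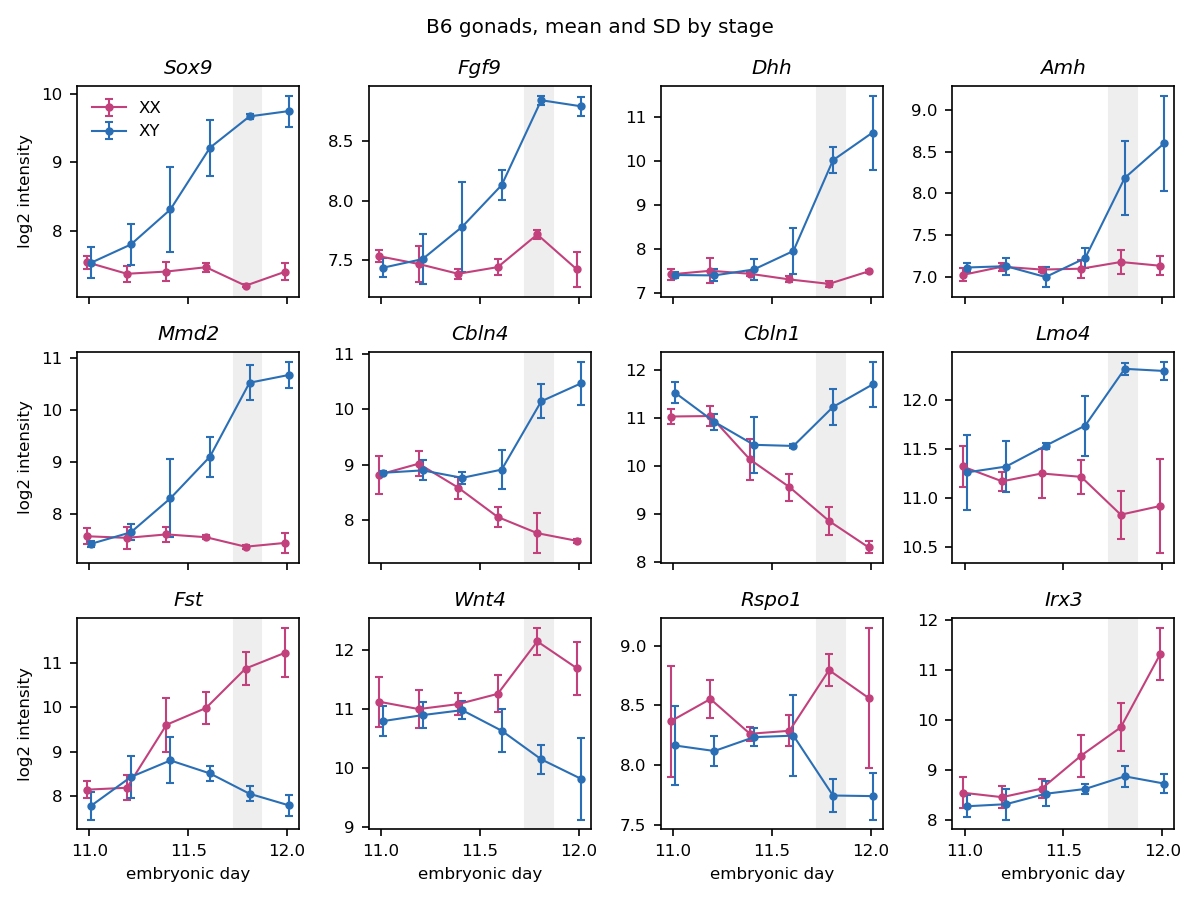
Level (y axis, log2, mean ± SD) of 12 genes in XX and XY gonads of B6 at 6 stages from E11.0 to E12.0 (x axis, embryonic day), with E11.8 shaded. The sex difference of Dhh goes from 0.65 to 2.82 between E11.6 and E11.8, that of Sox9 is already 1.74 at E11.6, and the XX level of Cbln1 goes from 11.04 to 8.86 at E11.8.

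The mean levels by stage followed different courses in different genes and are given as description, without a test of these courses. Sox9 was at 8.31 in XY gonads at E11.4, 9.21 at E11.6 and 9.67 at E11.8, while XX gonads stayed between 7.20 and 7.54. Dhh was at 7.96 in XY gonads at E11.6 and 10.02 at E11.8, and Amh at 7.22 and 8.19. Fst was at 8.51 in XY gonads at E11.6 after 8.80 at E11.4, and at 8.05 at E11.8, while XX gonads went from 8.15 at E11.0 to 9.98 at E11.6 and 10.86 at E11.8. Wnt4 was between 11.00 and 11.25 in XX gonads from E11.0 to E11.6 and at 12.14 at E11.8, and in XY gonads it went from 10.63 to 10.15 over the last of these steps.

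The comparison was set beside sex differences whose group means come from other arrays. The calls are not independent of each other, because they share the kept probes and a spread pooled for each probe over the whole series. Of the 277 genes higher in XY gonads at E11.8, 243 (87.7%) had a positive difference at E11.6, 269 (97.1%) at E12.0 and 266 (96%) in 129S1 at E11.8, where 51.9%, 49.7% and 47.9% of all genes did. At E12.0, 167 of them (60.3%) were called in the same direction, which was 67.6% of the 247 called there, and in 129S1 at E11.8 it was 163 (58.8%), or 63.2% of 258. Of the 111 genes lower in XY gonads, 85 (76.6%), 98 (88.3%) and 103 (92.8%) had a negative difference, where 48.1%, 50.3% and 52.1% of all genes did. Called among them were 58 at E12.0 (52.3%, or 25.4% of the 228 called there) and 48 in 129S1 at E11.8 (43.2%, or 29.3% of 164). The median differences at E12.0 were 0.51 and -0.53 for the 2 sets, and in 129S1 at E11.8 they were 0.51 and -0.46.

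**Figure D5:**
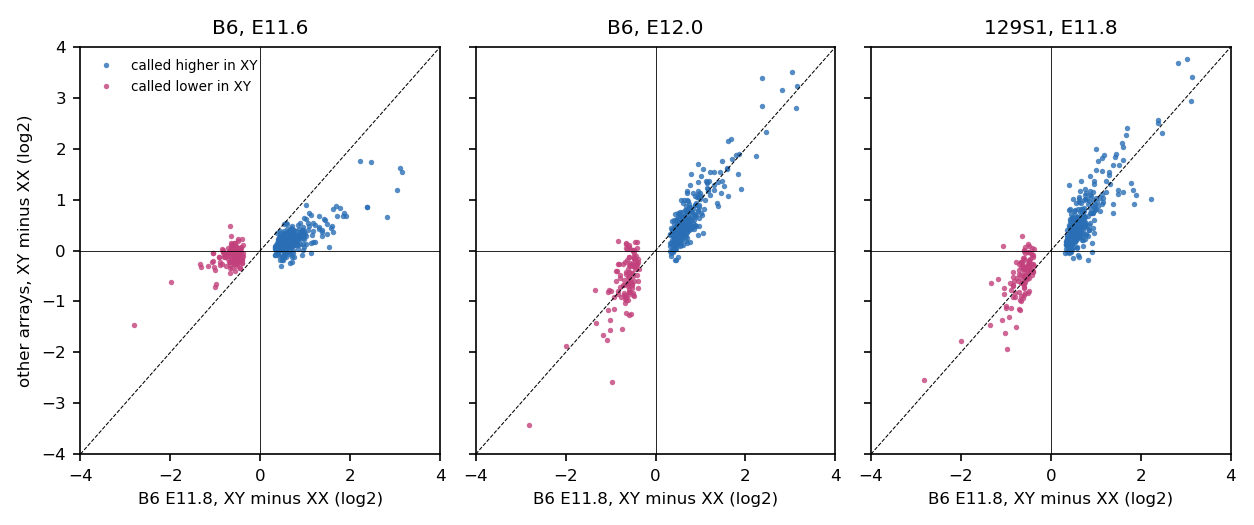
XY minus XX difference of the 388 called genes in B6 at E11.8 (x axis, log2) against the difference of the same genes in B6 at E11.6, B6 at E12.0 and 129S1 at E11.8 (y axes, log2), from other arrays. Points lie nearest to 0 at E11.6, where 16 of the genes are called, and most lie in the same quadrant in all 3 panels.

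Between E11.8 and E12.0 no change of the sex difference was called by limma, with 499 genes at an unadjusted p under 0.05, and 1 probe was called without XX replicate 3 at E11.8, XX replicate 2 at E12.0 or XY replicate 1 at E12.0. The gene with the smallest p was Irx3, whose difference was -0.98 at E11.8 and -2.59 at E12.0 (change -1.61 ± 0.32, adjusted p = 0.0883), as its XX level went from 9.85 to 11.31. The list of ovary pathway genes had 9 called lower at E11.8 and 13 at E12.0, with medians of -0.38 and -0.53. Testis pathway genes had 26 and 31 called higher, with medians of 1.11 and 1.15. At E11.6 these lists had 8 higher and 1 lower, with medians of 0.42 and -0.04.

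The sex difference of B6 at E11.8 was also tested against that of 129S1 at the same stage, where 258 genes were called higher and 164 lower (2.97% and 1.89%, or 4.85% in all). The strain difference was called for 8 genes, 5 positive and 3 negative (0.0575% and 0.0345%, or 0.092% in all), with 415 at an unadjusted p under 0.05. Rnase1 differed between the sexes by 2.23 in B6 and 1.02 in 129S1 (1.21 ± 0.26, adjusted p = 0.0435). Pitpnm3, a phosphatidylinositol transfer protein gene, differed by 0.82 in B6 and -0.18 in 129S1 (1.00 ± 0.20, adjusted p = 0.0167), and Cytip, a cytohesin-binding protein gene, by 0.61 and -0.09 (0.70 ± 0.15, adjusted p = 0.036). Il15 differed by -1.06 in B6 and 0.08 in 129S1, where its mean was 7.25 in XX gonads and 7.33 in XY gonads (-1.14 ± 0.25, adjusted p = 0.0488). Dtna, a dystrobrevin gene, and Vxn differed more in 129S1, by 0.96 and 1.28 against 0.14 and 0.40 in B6. The other kept probe of Dtna gave 0.35 in B6 and was called higher there. Tmem25 and 2210407C18Rik differed by 0.48 and 0.41 in B6, short of a call, and by -0.55 and -0.96 in 129S1. These calls moved with single arrays: the number of probes was 0 without B6 XY replicate 1, 1 without 129S1 XY replicate 1, 2 without B6 XX replicate 3, 3 without B6 XY replicate 3, 129S1 XX replicate 2 or 129S1 XY replicate 3, 4 without B6 XX replicate 1, 5 without 129S1 XX replicate 1 and 33 without 129S1 XX replicate 3. None of Sox9, Fgf9, Amh, Dhh, Fst and Wnt4 was among the 8, and for Amh the difference was 1.01 in B6 and 1.99 in 129S1 (-0.98 ± 0.28, adjusted p = 0.343).

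Of the 388 called genes, 91 had several kept probes. All other probes were called the same way for 22 of them, some other probe was not called for 69, and for Sult2b1, a sulfotransferase gene, another probe was called in the opposite direction (-0.48 and 0.29). A further 38 genes were called only at a probe other than the one with the highest mean level, and these are not counted above. The lower group mean was below the array median for 54 genes called higher (19.5%) and 12 called lower (10.8%), and their log2 differences may understate the change because the array has little range there. Col9a3, a gene of the rule for named genes, had no kept probe, and Ddx4, Kdr, Pax2, Ptprc and Csf1r among the cell type markers had none either.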

How the data were processed

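RNA of single pairs of gonads was hybridized to MouseRef-8 v2.0 BeadChips. Per the paper and the submitters' notes, the authors extracted raw values with GenomeStudio and deposited log2 values, quantile normalized with the R package beadarray (R 2.12.0); these were used without further normalization. The deposited table of intensities prior to normalization was left out, since its columns carry chip positions that could not be paired with samples, so detection p values, background correction and the slide were not analysed here. Of 25697 probes, 23978 carry 1 gene symbol, 1719 none, and 23962 matched the current annotation.

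Probes were ranked on the next-to-highest array of the group where they were brightest, and the upper 50% were kept (12848, down to a log2 level of 7.592), of which 11723 are autosomal and represent 8698 genes. A gene is read at its kept probe with the highest mean over all 74 arrays. Group means of the 24 combinations of strain, sex and stage were fitted with limma 3.58.1 (R 4.3.3), and moderated tests of contrasts were adjusted by the Benjamini-Hochberg method over all kept probes at 0.05. The script was tested on simulated data. Arrays give no depth, and 3 arrays a side limit the precision. An exact permutation test of 3 against 3 could not go below 0.1.

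Genes named are the 15 largest called differences in each direction without overlap, up to 4 called members of each gene list (the smallest p where none was called), genes the study names, and the 8 smallest p values of each change or strain difference. Other genes are list members given as examples. The members and the lists were chosen with earlier results of these data known. Alternatives were the filter, the arrays fitted, array weights, the prior variance, normalization, a replicate block, thresholds, leaving out each array, and, added after seeing the data, the shared axis as a covariate.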

Additional observations from a re-analysis of the deposited data

Results flagged for a closer look

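The results below are here because the sex difference of B6 at E11.8 differed, by a test of the difference itself, from that of B6 at E11.6 or from that of 129S1 at E11.8. Both families of tests use the same 6 arrays.

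Between E11.6 and E11.8, 20 autosomal probes changed their sex difference in B6. Of the 8 genes with the smallest p, Dhh changed by 2.17 (limma, adjusted p = 2.94e-05), Mmd2 by 1.6 (adjusted p = 0.00145), Cbln4 by 1.52 (adjusted p = 0.000222), Chst1 by 1.46 (adjusted p = 0.0023) and Tesc by 1.26 (adjusted p = 0.000152). Adamts16 changed by 1.12 (adjusted p = 0.0134), Diras2 by 1.01 (adjusted p = 0.00317) and Dusp15 by 1.00 (adjusted p = 0.00975). All 8 changed toward a larger excess in XY gonads. Other named genes called for this change included Cst9 (1.85, adjusted p = 0.035), Cbln1 (1.52, adjusted p = 0.035), Espn (1.23, adjusted p = 0.0189) and Atn1 (0.76, adjusted p = 0.0301). Without XY replicate 3 at E11.8, neither Adamts16 (adjusted p = 0.152) nor Dusp15 (adjusted p = 0.123) was called.

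The strain difference at E11.8 was called for 8 autosomal probes, and a value here is the sex difference of B6 minus that of 129S1. It was 1.36 for 2210407C18Rik (limma, adjusted p = 0.00205), 1.21 for Rnase1 (adjusted p = 0.0435), 1.03 for Tmem25 (adjusted p = 0.0435), 1.00 for Pitpnm3 (adjusted p = 0.0167) and 0.701 for Cytip (adjusted p = 0.036). It was -1.14 for Il15 (adjusted p = 0.0488), -0.88 for Vxn (adjusted p = 0.00629) and -0.82 for Dtna (adjusted p = 0.00629). Each lost its call without at least 1 of the 12 arrays, and Il15, Rnase1 and Tmem25 lost it without any of 10 of them. Both 129S1 group means of Il15 lay below the array median, where a sex difference may not show. For 2210407C18Rik, XY replicate 1 of B6 was at 8.40 and the other XY gonads at 7.68 and 7.71, and without it the adjusted p was 0.0622.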

How the results depend on the processing

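Counts are of autosomal probes called, in the order higher and lower in XY gonads at E11.8, changed from E11.6, changed to E12.0 and different between strains; with the settings used for the report they were 319, 143, 20, 0 and 8. They moved by over 1.5 times as follows. Array quality weights gave 577, 437, 514, 81 and 26. A fit on only the arrays of the groups compared gave 360 lower, 9 changed from E11.6 and 4 different between strains, and no filter on dim probes gave 5 of the last. A minimum of 1.5-fold left 168 higher and 82 lower. An unadjusted p under 0.05 with a lower fold minimum gave 740, 803, 1069, 640 and 490. The axis covariate gave 1 change to E12.0. With the replicate number as a block, 336 were higher and 217 lower; numbers do not pair these gonads, whose same-numbered XY and XX deviations correlated at 0.0683, 0.0282 and -0.213. Leaving out 1 array gave 165 to 271 higher, 58 to 118 lower, 7 to 35, 0 to 1, and 0 to 33. The cause of these moves was not tested.

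For named genes, the sex difference at E11.8 kept its side of the threshold and its sign in 1728 combinations of gene and setting, lost its call in 82, gained one in 18 and changed sign in 7. The 7 were in 3 genes that were not called: with an array left out, Nipsnap1 ranged from -0.22 to 0.12 (-0.03 with all arrays), Gabrb1 from -0.095 to 0.035 (-0.04) and Nr5a1 from -0.29 to 0.04 (-0.12), and Nr5a1 was at 0.10 with the axis covariate. Changes of the sex difference from E11.6 lost 10 calls and strain differences 62. Background correction, the detection filter and the slide block were not run. With 3 gonads a side, the smallest differences called were 0.32 in genes higher and 0.37 in size in genes lower in XY gonads, so a missing call does not show equal levels.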

Other observations

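Further genes, picked after their values were seen, lie outside the lists and the rule for named genes. For them no fit with an array left out or with the axis as a covariate is given. The calls of Nrtn, Asns and Cdkn1c were close to the threshold of 0.05. Gdnf, the growth factor that later sustains spermatogonial stem cells, was at 6.88, 7.10 and 7.05 in XX gonads and 8.60, 8.43 and 8.74 in XY gonads of B6 at E11.8 (1.58 ± 0.17, limma, adjusted p = 2.09e-10). Nrtn, a ligand gene of the same family, was at 8.47, 7.92 and 8.38 against 7.82, 7.58 and 7.61 (-0.58 ± 0.18, adjusted p = 0.0477), so these ligands differed in opposite directions. In 129S1 at E11.8 the values were 2.12 for Gdnf and -0.48 for Nrtn. Lrp4, a receptor gene that modulates Wnt signaling, was higher in XY gonads (1.31 ± 0.14, adjusted p = 8.16e-11), and so was Vdr, the vitamin D receptor gene (0.85 ± 0.10, adjusted p = 5.28e-09). The other kept probes of Vdr gave 0.14 and 0.74, and 1 of them was not called.

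Amino acid metabolism genes were called in both directions. Phgdh and Psat1, consecutive enzymes of serine synthesis, were higher in XY gonads by 0.88 ± 0.18 (adjusted p = 0.00125) and 0.85 ± 0.22 (adjusted p = 0.0108). Asns, the asparagine synthetase gene, and Slc7a11, the cystine transporter gene, were lower by -0.61 ± 0.18 (adjusted p = 0.0424) and -0.67 ± 0.14 (adjusted p = 0.000768). At E12.0 the differences of these 4 genes were 0.50, 0.49, -0.97 and -0.95. The other kept probes of Asns gave -0.86 and -0.20 at E11.8, and 1 of them was not called. Cdkn1c, which encodes p57, was near the top of the scale in both sexes, at 14.94, 14.81 and 15.18 in XX gonads and 14.64, 14.16 and 14.37 in XY gonads (-0.59 ± 0.17, adjusted p = 0.0399).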
